A study of Mus musculus with 6 samples.

Results

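Transcripts of circulating blood cells were examined in bulk RNA-seq of the mouse striatum. They were represented by 7 genes, chosen by name and matched by Ensembl identifier to the GENCODE M21 annotation of GRCm38, out of 46078 genes listed. The 4 adult globin genes (Hba-a1, Hba-a2, Hbb-bs and Hbb-bt) and Alas2 stood for red cells, and S100a8 and S100a9 for neutrophils. The study sequenced the striatum of 3 wild-type (WT) and 3 Shank3 transgenic (TG) male mice aged 12 weeks, with 1 library per mouse. All mice were on a C57BL/6J background, and the Shank3 TG mice carried an EGFP-Shank3 transgene whose promoter is not given in the sources used here. Mice were killed by decapitation under isoflurane, and the methods name no perfusion for the animals used for RNA.

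Adult hemoglobin is a tetramer of alpha and beta chains, each of which holds a heme group. Red cells make its messages in great amount while they mature, and the youngest circulating red cells, the reticulocytes, still carry them after the nucleus has been lost. Alas2 is the erythroid form of the enzyme that starts heme synthesis. S100a8 and S100a9 are calcium-binding proteins that pair to form calprotectin, a major cytosolic protein of neutrophils that monocytes also carry. Low globin expression has also been described in neurons and glia, so a globin read in brain tissue does not name its cell of origin by itself.

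The alpha globin genes lie on chromosome 11, Hba-a1 (ENSMUSG00000069919) at chr11:32283511-32284465 and Hba-a2 (ENSMUSG00000069917) at chr11:32296489-32297298, both on the plus strand. The adult beta globin genes of this strain lie on chromosome 7, Hbb-bs (ENSMUSG00000052305) at chr7:103826534-103828096 and Hbb-bt (ENSMUSG00000073940) at chr7:103812524-103813996, both on the minus strand. Alas2 (ENSMUSG00000025270) is on the plus strand at chrX:150547375-150570638. S100a8 (ENSMUSG00000056054, plus strand, chr3:90668978-90670035) and S100a9 (ENSMUSG00000056071, minus strand, chr3:90692632-90695721) are neighbours on chromosome 3.

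Each pair of globin genes is a pair of near copies, which limits how far a read can be assigned to 1 of them. The coding sequences of Hba-a1 and Hba-a2 are 429 bases long and differ at 1 base, C381T, and those of Hbb-bs and Hbb-bt are 444 bases long and differ at 1 base, C417T, with the first gene's base given first and positions counted from 1 at the A of the start codon. The lines that follow hold the 61 coding bases around each difference, 5′ to 3′ on the gene's own strand in GENCODE M21, since these are the only coding positions at which a read can tell the copies apart. All lie in exon 3 of 3, and the differing base is in capitals. The windows are at chr11:32284313-32284373, chr11:32297130-32297190, chr7:103826665-103826725 and chr7:103812656-103812716 of GRCm38, in the order shown.
Hba-a1: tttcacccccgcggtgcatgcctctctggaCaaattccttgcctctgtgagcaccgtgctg
Hba-a2: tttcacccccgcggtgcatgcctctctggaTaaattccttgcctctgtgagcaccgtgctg
Hbb-bs: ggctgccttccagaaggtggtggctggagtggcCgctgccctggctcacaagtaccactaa
Hbb-bt: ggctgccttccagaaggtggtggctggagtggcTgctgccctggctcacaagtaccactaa

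Of the stretches of the length of 1 sequenced read in the spliced transcripts, 56.3% of those in Hba-a1 occurred unchanged in Hba-a2, and 74.2% of those in Hba-a2 in Hba-a1. For the beta pair, 62.5% of the stretches in Hbb-bs occurred in Hbb-bt and 54.7% of those in Hbb-bt in Hbb-bs. How the counting treated reads that match both copies is not given in the sources used here. The split between copies is therefore uncertain, and the summed alpha and beta values are given beside the single genes.

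The values deposited are gene counts divided by the size factor of each library, called normalized read counts here. They were whole multiples of 1 read in every library, so the reads behind each value could be recovered, between 27689589 and 36647626 per library over all genes. Shank3 itself had a mean of 28081 normalized read counts in Shank3 TG mice (SD 1934, n = 3) and of 13530.2 in WT mice (SD 531, n = 3), in the direction of the labels. Genotypes were compared by limma on log2(normalized read count + 1) in 17605 genes whose mean was 10 or more, and P values were adjusted by Benjamini-Hochberg over all of them. The 5 erythroid genes passed this filter. S100a8 and S100a9, with means of 4.01 and 6.38, did not, and their limma values come from a fit over 23243 genes whose mean was 1 or more.

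The erythroid transcripts were present in all 6 libraries and the neutrophil transcripts were close to the counting floor. Per kilobase of exon, the mean normalized read count was 1219.9 for Hbb-bs, 830.1 for Hba-a1, 729 for Hba-a2, 265 for Hbb-bt, 36.8 for Alas2, 12.2 for S100a9 and 5.78 for S100a8. The ranges over libraries overlapped between Hbb-bs (896 to 1658 per kilobase), Hba-a1 (643 to 1222) and Hba-a2 (537 to 1120.5), although within each of the 6 libraries this order was kept. Hbb-bt (171 to 369.8 per kilobase) and Alas2 (25.7 to 57.1) did not overlap with their neighbours in the order. S100a9 (1.79 to 21.5 per kilobase) and S100a8 (1.35 to 11.1) overlapped. The 4 globin genes together took between 0.00546% and 0.0104% of the reads of a library, and the S100 pair had between 2 and 22 reads.

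Hba-a1 had 992, 720.5 and 522 normalized read counts in TG replicates 1, 2 and 3 and 529.9, 655 and 625 in WT replicates 1, 2 and 3. Hba-a2 followed with 747, 518 and 358 in the TG mice, against 394, 449.8 and 449 in the WT mice. Both alpha genes were highest in TG replicate 1 and lowest in TG replicate 3, with every WT value between TG replicates 2 and 3. The group means were 745 ± 236 in TG and 603 ± 65.2 in WT mice for Hba-a1 (SD, n = 3 each) and 541 ± 196 and 431 ± 32.1 for Hba-a2. The TG mice thus spanned the WT range on both sides.

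Hbb-bs, the more abundant beta globin gene, had 1273, 1021 and 781 normalized read counts in the TG mice, against 688, 921 and 938 in the WT mice. Hbb-bt, the less abundant one, had 260.0, 233 and 131 in the TG mice, against 120.2, 186 and 188 in the WT mice. In both beta genes TG replicates 1 and 2 were above all WT mice, while TG replicate 3 lay between WT replicate 1, the lowest library, and the other WT mice. The means were 1025 ± 246 in TG and 849 ± 139.7 in WT mice for Hbb-bs (SD, n = 3 each) and 208 ± 67.7 and 165 ± 38.5 for Hbb-bt.

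Alas2, the erythroid heme synthesis enzyme, had 137, 96.7 and 75.0 normalized read counts in the TG mice, against 73.2, 61.7 and 86.4 in the WT mice. Again TG replicates 1 and 2 were above every WT mouse and TG replicate 3 was within the WT range. The means were 103 ± 31.6 in TG and 73.8 ± 12.3 in WT mice (SD, n = 3 each).

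**Figure D1:**
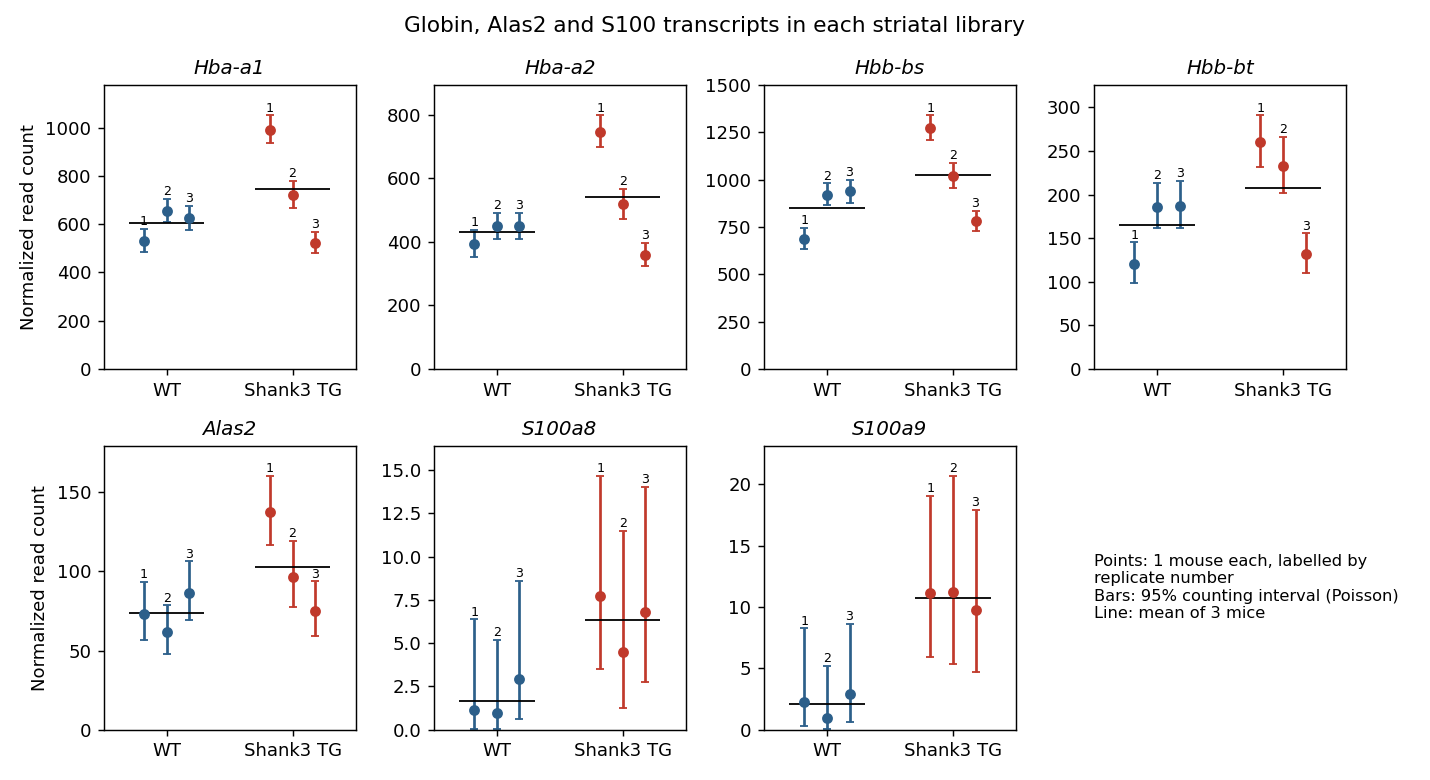
Normalized read count (y axis, linear from 0) of each of the 7 genes in the 3 WT and 3 Shank3 TG mice (x axis), with points labelled by replicate number, vertical bars for the 95% counting interval and a horizontal line for the mean of 3 mice. In the 5 erythroid genes TG replicates 1 and 2 are above all WT mice and TG replicate 3 is not, while in S100a8 and S100a9 the 3 TG mice are above the 3 WT mice.

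None of the 5 erythroid genes passed the test between genotypes. Their limma log2 fold changes (TG minus WT) were 0.26 for Hba-a1 (standard error 0.18, 95% interval -0.15 to 0.67), 0.27 for Hba-a2 (0.20, -0.18 to 0.72), 0.26 for Hbb-bs (0.16, -0.10 to 0.62), 0.31 for Hbb-bt (0.25, -0.24 to 0.85) and 0.44 for Alas2 (0.22, -0.04 to 0.92). By limma each had an adjusted P value of 0.971, in a test that called 0.00568% of all genes. The unadjusted P values ran from 0.0661 (Alas2) to 0.241 (Hbb-bt), and 0 of the 5 were under 0.05, a level that 4.31% of all genes tested reached. The genotypes separated without overlap in 0 of the 5 and in 10.1% of the genes tested. By the two-sided exact permutation test on 3 against 3 mice, P was 0.5 for Hba-a1, Hba-a2 and Hbb-bt, 0.4 for Hbb-bs and 0.2 for Alas2, where the smallest P value possible is 0.1. All 5 had a log2 fold change above 0, as did 49.2% of the genes tested. Each interval included 0 and reached 0.62 or more, so differences within it could not be told from 0 with 3 mice per genotype.

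The size of the erythroid differences rested largely on TG replicate 1. Without that mouse the log2 fold changes were 0.03 for Hba-a1, 0.00 for Hba-a2, 0.09 for Hbb-bs, 0.12 for Hbb-bt and 0.22 for Alas2. Leaving out TG replicate 3 moved them the other way, to 0.49, 0.53, 0.44, 0.61 and 0.65 in the same order. Unadjusted limma P values were 0.00415 (Hba-a2) to 0.0115 (Alas2) without TG replicate 3. They were 0.289 (Alas2) to 0.981 (Hba-a2) without TG replicate 1. Adjusted P values by limma were at least 0.807 in every fit with 1 mouse left out. Without WT replicate 1 the value was 0.17 for Hba-a1, 0.11 for Hbb-bs and 0.10 for Hbb-bt. The 4 globin genes summed were 2519 ± 740 in TG and 2048 ± 274 in WT mice (SD, n = 3 each), a ratio of 1.23 with all mice and of 1.05 without TG replicate 1. Summing the copies before the fit gave log2 fold changes of 0.26 for the alpha pair and 0.27 for the beta pair, with an adjusted P value of 0.971 by limma for each pair.

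TG replicate 1 was also set apart by markers of tissue next to the striatum. Transthyretin (Ttr), a defining message of the choroid plexus, had 13701 normalized read counts there. The other TG mice had 1122 and 204, and the WT mice between 119.7 and 432. The 19 choroid plexus markers matched summed to 30836 in that library and to between 9172 and 10352 in the other 5 libraries. Most of the sum outside TG replicate 1 was Enpp2, which oligodendrocytes also make. Without Enpp2 the markers gave sums of 17576, 2865 and 1376 in the 3 TG mice in replicate order, against 1662 to 2141 in the WT mice. In the same order, 19, 11 and 3 of the 19 markers were above every WT mouse, and 0, 5 and 7 were below every WT mouse. The 12 markers of striatal spiny neurons summed to 131540 in TG replicate 1 and to between 153685 and 183120 elsewhere. The part of these differences in the globin values was not tested.

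TG replicate 1 was the highest of 6 libraries in 17.8% of the genes tested, and in all 5 erythroid genes. TG replicate 2 came next in all 5, and it was also next in the choroid plexus markers summed without Enpp2. The order of the 3 TG mice was thus the same in this sum and in the 5 erythroid genes. By the distance to Hbb-bs described below, Ttr ranked 17604 of 17604 genes. That distance also grows with the size of a change, so for these markers it does not tell whether profiles share a shape. The 17 choroid plexus markers tested had a median distance of 0.92, against 0.30 over the genes tested, and 2 of them were among the 1760 nearest genes. A link between these markers and the erythroid genes was not tested. Without TG replicate 2 the log2 fold changes were 0.26 for Hba-a1, 0.27 for Hba-a2, 0.25 for Hbb-bs, 0.20 for Hbb-bt and 0.47 for Alas2. In bulk tissue, a smaller number of cells of a type and less RNA per cell cannot be told apart.

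**Figure D2:**
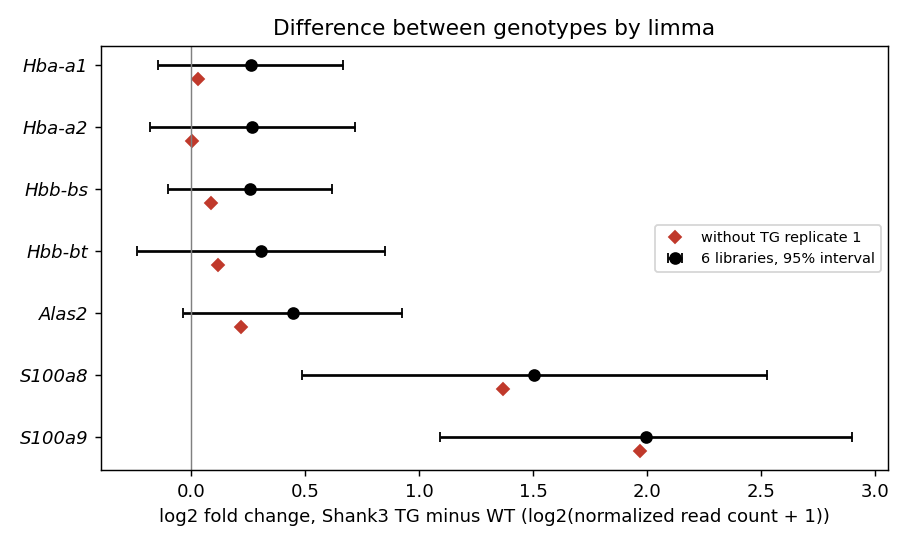
Log2 fold change (x axis, Shank3 TG minus WT, on the log2(normalized read count + 1) scale) of the 7 genes by limma, with black points and bars for the 6 libraries and their 95% interval and red diamonds for the value without TG replicate 1. The intervals of the 5 erythroid genes include 0 and their red diamonds lie between 0.00 and 0.22, while S100a8 and S100a9 lie at 1.51 and 2.00 with intervals above 0.

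S100a8 and S100a9 were higher in each TG mouse than in any WT mouse, on few reads. S100a8 had 7.72, 4.50 and 6.82 normalized read counts in the TG mice, from 9, 4 and 7 reads, against 1.14, 0.935 and 2.95 in the WT mice, from 1, 1 and 3 reads. S100a9 had 11.2, 11.2 and 9.74 in the TG mice, from 13, 10 and 10 reads, against 2.29, 0.935 and 2.95 in the WT mice, from 2, 1 and 3 reads. The groups did not overlap in either gene. This held for TG replicate 3 too, the mouse in which the alpha globins were lowest.

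The group means were 6.34 ± 1.66 and 1.67 ± 1.11 for S100a8 (SD, n = 3 each), a ratio of 3.79, and 10.7 ± 0.844 and 2.06 ± 1.02 for S100a9, a ratio of 5.21. In the wider fit, the limma log2 fold change was 1.51 for S100a8 (standard error 0.47, 95% interval 0.48 to 2.53, unadjusted P = 0.00746) and 2.00 for S100a9 (standard error 0.42, 95% interval 1.09 to 2.90, unadjusted P = 0.00043). After adjustment over all 23243 genes neither passed the threshold (adjusted P = 0.977 by limma and 0.991 by edgeR for both). In the same fits limma called 0.0129% and edgeR 0.0043% of the genes. An unadjusted limma P value under 0.05 was reached by 4.35% of those genes, and 4.73% had no overlap with the TG mice higher. Group means more than 3-fold apart with the TG mice higher were seen in 0.955% of those genes, a cut that was not planned in advance. Of the 23243 genes, 17605 had a mean of 10 or more. These shares therefore do not give how often genes with as few reads as S100a8 and S100a9 reach such values. On the recovered reads edgeR gave log2 fold changes of 1.86 and 2.33 for S100a8 and S100a9 (unadjusted P = 0.00973 and 0.000488).

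By the two-sided exact permutation test both genes had P = 0.1, the smallest that 3 mice against 3 allow. With 1 mouse left out, the limma log2 fold change stayed between 1.31 and 1.82 for S100a8 and between 1.70 and 2.21 for S100a9, and the lowest adjusted P values were 0.722 and 0.574. Summed, the pair had 17.1 ± 1.63 normalized read counts in TG and 3.73 ± 2.03 in WT mice (SD, n = 3 each), a ratio of 4.57, and of 4.33 without TG replicate 1. In all, 53 reads in the TG mice stood against 11 in the WT mice.

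The 4 globin genes kept similar proportions to each other while their total moved, although the alpha share differed between some libraries beyond its counting intervals. The 4 globins summed to 3273, 2492 and 1793 normalized read counts in the TG mice, against 1732, 2212 and 2199 in the WT mice, 1.89 times between the highest and the lowest library. The alpha pair summed to 1739, 1239 and 880.3 in the TG mice, against 924, 1105 and 1074 in the WT mice, and the beta pair to 1533, 1253 and 912, against 808, 1107 and 1125. Over the same libraries the alpha genes made up between 48.8% and 53.3% of globin reads, with exact 95% binomial intervals of 46.7% to 50.9% in WT replicate 3 and 50.8% to 55.9% in WT replicate 1. The interval of TG replicate 1 (51.5% to 54.7%) did not overlap with those of WT replicate 3 and TG replicate 3 (46.8% to 51.4%). The share was 53.1% in TG replicate 1, the richest library in globin, and 53.3% in WT replicate 1, the poorest. It was between 48.8% and 49.9% in the other 4 libraries. The alpha share thus did not follow the amount of globin.

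Hba-a1 took between 57.0% and 59.3% of alpha globin reads, and the intervals of all 6 libraries overlapped. Hbb-bs took between 81.4% and 85.6% of beta globin reads. Alas2 reads were 4.03%, 3.73% and 4.01% of the globin and Alas2 reads in the TG mice, against 4.06%, 2.71% and 3.78% in the WT mice. Alas2 in WT replicate 2 stood lowest, with an exact 95% interval of 2.11% to 3.44%. These intervals cover counting error only.

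The S100 pair did not keep a fixed proportion to globin. Its share of globin and S100 reads was 0.574%, 0.628% and 0.915% in the TG mice, against 0.198%, 0.0845% and 0.267% in the WT mice, 10.8 times between the highest and the lowest. The exact 95% intervals were 0.360% to 0.867% in TG replicate 1 and 0.0102% to 0.305% in WT replicate 2. Each TG share was above each WT share. However, the intervals of WT replicate 1 (0.0408% to 0.577%) and WT replicate 3 (0.0981% to 0.581%) each overlapped with those of all 3 TG mice.

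**Figure D3:**
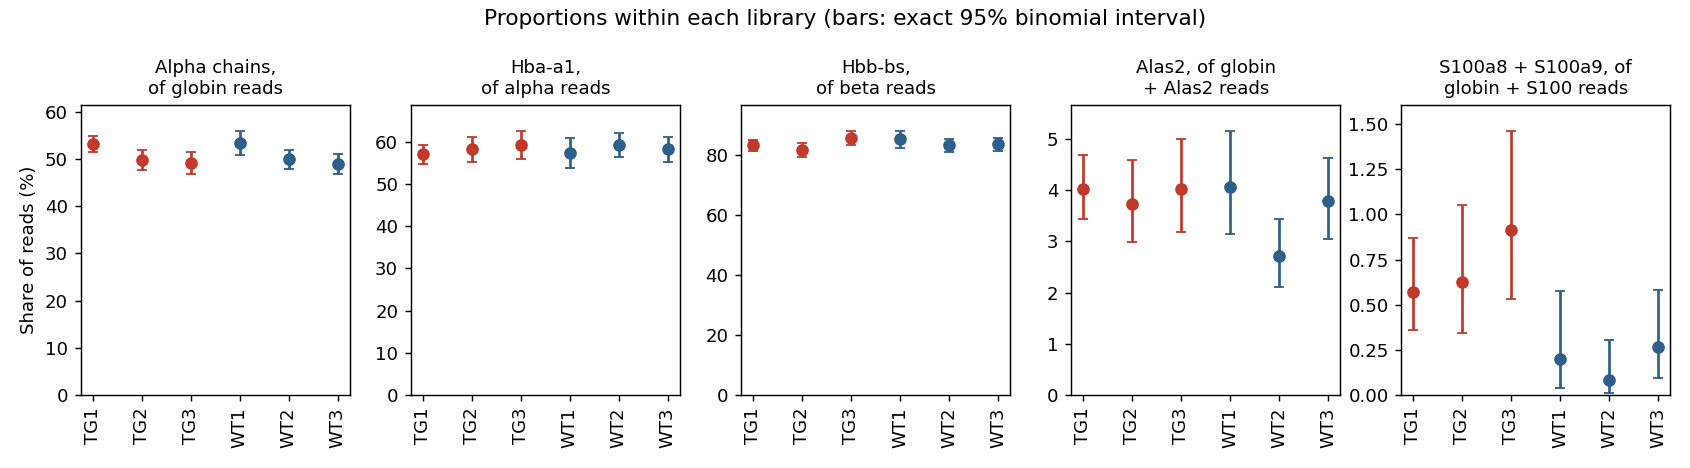
Share of reads (y axis, percent, from 0) of the alpha chains, Hba-a1, Hbb-bs, Alas2 and the S100 pair in the 6 libraries (x axis; TG red, WT blue), with bars for the exact 95% binomial interval. The alpha share stays between 48.8% and 53.3%, whereas the S100 share lies between 0.574% and 0.915% in the TG and between 0.0845% and 0.267% in the WT mice.

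The erythroid genes varied more between mice than most genes. On the log2 scale the SD over the 6 libraries was 0.34 for Hba-a1, 0.37 for Hba-a2, 0.31 for Hbb-bs, 0.44 for Hbb-bt and 0.40 for Alas2, against a median of 0.11 over the genes tested. These values were larger than those of 86.7% (Hbb-bs) to 94.9% (Hbb-bt) of the genes tested. Within genotypes the variance was 43.7 times the counting variance for Hba-a1, 39.2 times for Hba-a2, 42.5 times for Hbb-bs, 15.7 times for Hbb-bt and 6.33 times for Alas2. Counting error was therefore a small part of the spread of the globins. Within genotypes the SD on the log2 scale was 0.31 to 0.45 for the 5 erythroid genes and 0.46 and 0.38 for S100a8 and S100a9. For the S100 genes the variance was 0.575 and 0.305 times the counting variance. This ratio grows with the number of reads, so it does not compare the S100 genes with the globins, and at their depth a spread like that of the globins could not be told from counting error.

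The genes whose profile over the 6 libraries was nearest to Hbb-bs were sought by the root mean square distance of log2 values centred on each gene's mean, a description over 6 libraries that share depth and scaling. Among 17604 other genes, Vwf, the von Willebrand factor of endothelial cells and platelets, was nearest (distance 0.05), followed by Gpc3, a heparan sulfate proteoglycan of the cell surface (0.06), and Ripk4, a serine/threonine kinase (0.08). The other globins ranked 4 (Hba-a1, 0.09), 31 (Hba-a2, 0.13) and 53 (Hbb-bt, 0.14), and Alas2 ranked 677 (0.22), against a median distance of 0.30. Vwf had 1031, 851 and 694 normalized read counts in the TG mice, against 549, 803 and 782 in the WT mice. Its highest and lowest libraries were those of Hbb-bs.

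In the median, the endothelial markers were no nearer to Hbb-bs than all genes tested. The 20 markers had a median distance of 0.30, the same as all genes tested. Of the 20, 4, Vwf included, were among the 1760 nearest of 17604 genes. The distance also depends on the size of a change, so a nearly flat gene is far from Hbb-bs whatever its shape. Whether the other endothelial genes shared the shape of the profile was not tested. Slc2a1, the glucose transporter of the blood-brain barrier, and Flt1, a VEGF receptor, were the most abundant of them, with 3238, 3291 and 2938 and with 2931, 2871 and 2807 normalized read counts in the TG mice. Their WT values were 2738, 2852 and 3067 and 3005, 2604 and 3017. Slc2a1 shared its lowest library, WT replicate 1, with Hbb-bs but was highest in TG replicate 2, and Flt1 was highest in WT replicate 3 and lowest in WT replicate 2. Slco1c1, an anion transporter of brain endothelium, had 1885 ± 21.7 in TG and 1894 ± 102 in WT mice (SD, n = 3).

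Alas2 was nearest to Abca4, a retinoid transporter (distance 0.09), Snai2, a transcriptional repressor (0.10), and Ptgs2, the inducible cyclooxygenase (0.13). The alpha globins ranked 25 (Hba-a2) and 47 (Hba-a1), Hbb-bs 87 and Hbb-bt 567 of 17604 genes. Ptgs2 had 531, 301 and 308 normalized read counts in the TG mice, against 258, 238 and 322 in the WT mice. As with Alas2, TG replicate 1 was the highest and WT replicate 2 the lowest.

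**Figure D4:**
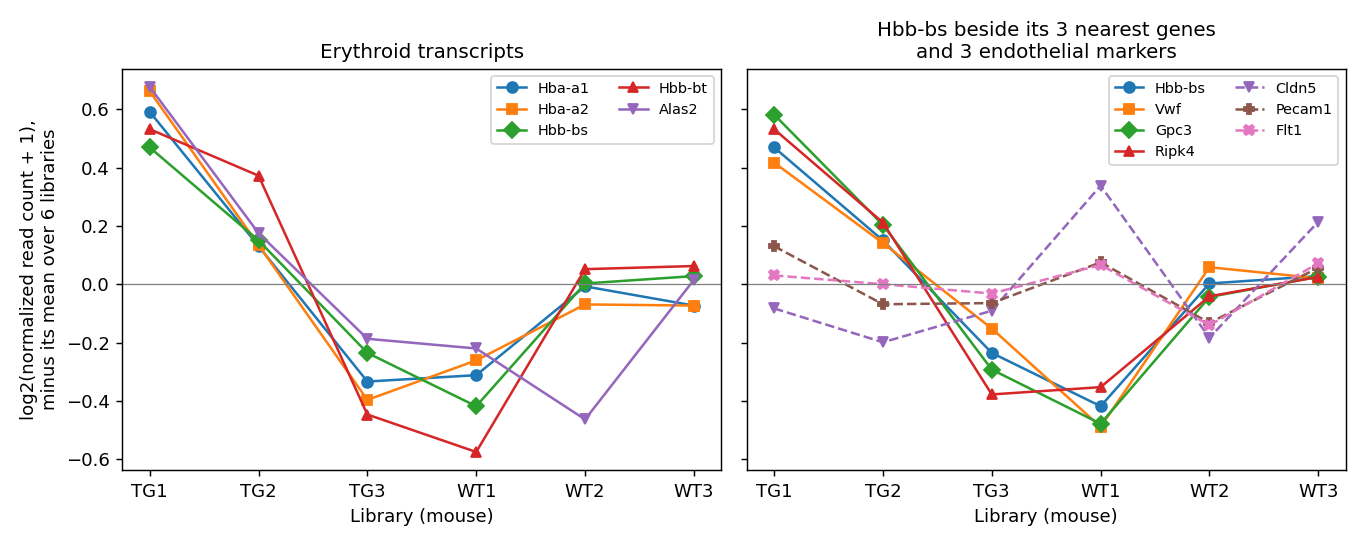
Log2(normalized read count + 1) minus its mean over the 6 libraries (y axis) in each library (x axis), on the left for the 5 erythroid genes and on the right for Hbb-bs, its 3 nearest genes and 3 endothelial markers, of which Cldn5 and Pecam1 were chosen after their values were seen. Lines only join the points of a gene. TG replicate 1 is highest in the 5 erythroid genes and in Vwf, Gpc3 and Ripk4, and Cldn5 is highest in WT replicate 1, where Hbb-bs is lowest. The 3 markers drawn do not stand for the 20 of the list. Slc2a1, the most abundant of the 20, is not drawn and, like Hbb-bs, was lowest in WT replicate 1.

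Messages of the rest of the red cell program were mostly scarce or came from genes that brain cells also use. Of the 6 other globin chains, 3 were listed at 0 in every library. The theta globin genes Hbq1a and Hbq1b, near copies of each other, had 7.72, 8.99 and 13.6 and 4.29, 3.37 and 4.87 normalized read counts in the TG mice, and 3.43, 8.42 and 5.89 and 0, 2.81 and 2.95 in the WT mice. The embryonic chain Hbb-y had 1 read in all. Hbq1b did not overlap between genotypes, on 13 and 6 reads, as was the case with the TG mice higher in 4.73% of genes with a mean of 1 or more.

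Of the 33 erythroid markers matched, 18 were tested, and 12 of these were higher and 6 lower in TG mice by sign alone, with 0 called and a median log2 fold change of 0.01 (genes tested, -0.00). Band 3 (Slc4a1), the anion exchanger of the red cell membrane, had 11 reads in the TG and 10 in the WT mice. The erythroid transcription factor Gata1, the blood group gene Kel and Cldn13 were listed at 0 in every library. Klf1 had 20 reads in the TG and 12 in the WT mice, Rhd 11 and 15, and Trim10 9 and 7. These 3 were named after their values were seen. Of the 12 erythroid markers with a read and a mean under 10, the TG mean was higher in 7 and lower in 5. It was higher in 48.7% of all such genes. Alas2 made up 2.71% to 4.06% of globin and Alas2 reads. The cells that the globin reads came from were not tested. Among the most abundant genes of the list were Sptb (9258 ± 605 in TG and 9689 ± 602 in WT mice, SD, n = 3) and Tmcc2 (5252 ± 388 and 5933 ± 336), both known to be expressed in neurons.

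The 8 other enzymes of heme synthesis were tested, 2 higher and 6 lower in TG mice by sign alone, with a median log2 fold change of -0.02 and 0 called. Fech, which inserts the iron, had 1657, 1694 and 1749 normalized read counts in the TG mice, against 1776, 1638 and 1715 in the WT mice. Alas1, the form of the first enzyme that most tissues use, had 1603, 1408 and 1443 against 1397, 1440.3 and 1442, and Cpox had 1315, 1385 and 1477 against 1291, 1376 and 1502. Fech and Cpox were not highest in TG replicate 1, where Alas2 and the globins were, whereas Alas1 was.

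Genes that take up or break down hemoglobin and heme also showed no call. All 13 were tested, 3 higher and 10 lower by sign alone, with a median log2 fold change of -0.07. The ferritin heavy chain Fth1 had 53296 ± 7208 normalized read counts in TG and 55897 ± 1836 in WT mice (SD, n = 3), the heme-hemopexin receptor Lrp1 19463 ± 487 and 20099 ± 1786, and the heme transporter Slc48a1 4551 ± 251 and 4739.8 ± 53.5. The 13 genes had a median distance of 0.29 to Hbb-bs, against 0.30 over the genes tested. Hmox1, the inducible heme oxygenase, was the only 1 of them among the 1760 nearest genes and was named after its values were seen. It ranked 112 of 17604 genes by distance to Hbb-bs, with 268, 159.6 and 178 in the TG mice, against 144, 182 and 188 in the WT mice. Like the globins it was highest in TG replicate 1 and, like Hbb-bs, lowest in WT replicate 1. On the log2 scale it differed by 0.21 between genotypes (standard error 0.18), with an adjusted P value of 0.971 in limma. The hemopexin gene Hpx differed by -1.02 (standard error 0.39, adjusted P = 0.971 by limma). Without overlap, 1 of the 13 was higher (Hmox2) and 2 were lower (Blvra and Blvrb) in TG mice, against 10.1% of the genes tested in either direction.

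Other neutrophil genes were counted beside S100a8 and S100a9. Of 38 markers, 9 were tested, 16 had a mean under 1 and 4 (Elane, Stfa1, Stfa2 and Mrgpra2b) were at 0 in every library. Among the 9 tested, 6 were higher and 3 lower in TG mice by sign alone, with a median log2 fold change of 0.06. The values did not overlap between genotypes, with the TG mice higher, in 3 of the 9, against 5.06% of the genes tested, and limma called 0. Of the 25 markers with a read and a mean under 10, the TG mean was higher in 15, and it was higher in 48.7% of all such genes.

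Lcn2, the neutrophil granule protein lipocalin 2 that choroid plexus and glia also make under inflammation, had 105, 48.3 and 27.3 normalized read counts in the TG mice, against 10.3, 17.8 and 17.7 in the WT mice. It was the highest in TG replicate 1, the library rich in choroid plexus markers, and the part of these markers in its value was not tested. It differed by 1.74 between genotypes on the log2 scale (standard error 0.42), with an adjusted P value of 0.971 in limma, and DESeq2, which called 0.0398% of genes, called it (adjusted P = 0.0308). Mmp9, a gelatinase, had 28.3, 25.9 and 24.3 in the TG mice, against 19.5, 21.5 and 11.8 in the WT mice. Olfm4, an olfactomedin of neutrophil granules, had 17.2, 16.9 and 14.6 in the TG mice, against 6.87, 12.2 and 8.84 in the WT mice. In these 3 genes each TG mouse was above each WT mouse, with log2 fold changes of 0.59 for Mmp9 and 0.77 for Olfm4 and adjusted P values of 0.971 by limma. They were named after their values were seen.

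The most abundant neutrophil markers were Csf3r, the G-CSF receptor, Pglyrp1, a peptidoglycan-binding protein, and G0s2. Csf3r had 284 ± 19.5 normalized read counts in TG and 309 ± 5.28 in WT mice (SD, n = 3), Pglyrp1 143 ± 19.4 and 141 ± 9.81, and G0s2 80.9 ± 4.34 and 77.8 ± 5.87. The genotypes overlapped in each of the 3. Microglia also use Csf3r. Among other markers of the list, Retnlg had 6 against 0 reads in TG and WT mice, Ngp 5 against 2 and Camp 3 against 1. Mpo had 7 against 2 reads, Ctsg 0 against 3, Prtn3 100 against 108 and Ltf 4 against 5. Fcnb had 1 against 4 reads, Chil3 7 against 8, Cxcr2 19 against 22 and Ly6g 1 against 1. Clec4d had 12 against 2 reads, Clec4e 10 against 5, Itgb2l 15 against 9, Il1b 21 against 14 and Ifitm6 10 against 6. In Retnlg and Mpo each TG mouse was above each WT mouse. This was so in 4.73% of genes with a mean of 1 or more, a mean that Retnlg did not reach. These markers were named after their values were seen. The named genes thus leaned both ways. Of the 25 markers of the list with a read and a mean under 10, the TG mean was higher in 15 and lower in 10. Most of these markers had too few reads to give a direction at this depth.

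**Figure D5:**
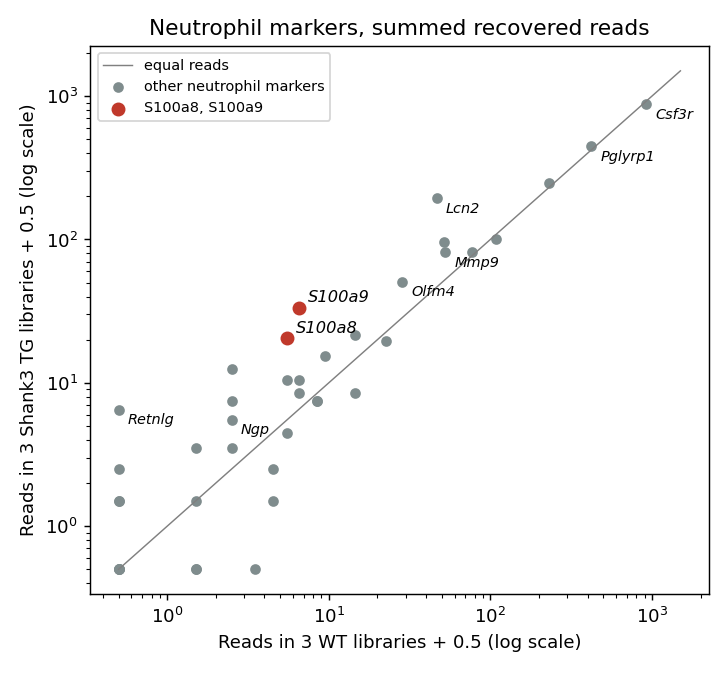
Recovered reads summed over the 3 Shank3 TG libraries (y axis) against those summed over the 3 WT libraries (x axis) for S100a8, S100a9 and the 38 other neutrophil markers, both as reads + 0.5 on log axes, with a line for equal reads. S100a8 (20 against 5 reads) and S100a9 (33 against 6) lie above the line with Lcn2 (193 against 46), while Csf3r (874 against 917) and Pglyrp1 (446 against 420) lie near it.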

How the data were processed

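Striatal RNA from 3 WT and 3 Shank3 TG mice, 1 library per mouse, was sequenced as paired reads. The authors trimmed the reads (Trimmomatic 0.35), aligned them to GRCm38 (TopHat2 2.1.0), counted them per gene (HTSeq) and divided the counts by DESeq2 size factors. The deposited signal is this normalized read count. The strand setting and annotation release are not given in the sources used here, nor is the handling of reads that match several genes, which bears on the globin copies.

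Reads were recovered by dividing each library by its smallest value above 0, which gave whole reads (within 0.01) for 100% of values. Per-gene precision follows from these counts (Poisson intervals, 95%), and intervals cover counting error only. Identifiers were matched to GENCODE M21 (45143 of 46078). The test was limma 3.58.1 (trend option) on log2(normalized read count + 1), which understates changes of low genes, over genes with a mean of at least 10, adjusted over all of them at 0.05, with no covariates. S100a8 and S100a9 were read from the same fit, and from edgeR 4.0.16, with a mean of at least 1. DESeq2 1.42.0, edgeR, voom, TMM, library totals, other filters and pseudocounts, each mouse left out, a block for the replicate number and summed copies were alternatives. The fits were tested on simulated data. R 4.3.3 and Python 3.11.15 were used.

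The genes, marker lists and tests were chosen with earlier results of these data known. Named genes are the 7 genes, the 3 most abundant and any called gene of each list, the 3 genes nearest to Hbb-bs and to Alas2, and Shank3, of which 1 list gene is not reported here. Others are marked or give a defining marker, and were named after their values were seen.

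Libraries of a genotype are separate mice per the methods. No sample was left out.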

Additional observations from a re-analysis of the deposited data

How the results depend on the processing

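None of the 7 genes was called under any setting, and each kept its direction in all 127 alternative values. S100a8 and S100a9 had no overlap under each scaling. Shank3 alone was called over all genes (1), against 7 genes by DESeq2, 5 without a filter, 3 with a mean of at least 1, and 1 to 3 with a mouse left out. Of the marker list genes 0 were called, against 1 (Lcn2) by DESeq2 and 0 to 2 with a mouse left out, the latter Prlr and, with a mean of at least 1, Clic6, both choroid plexus markers, without TG replicate 3. The cause was not tested. The replicate number did not pair the mice (deviation correlations of 0.0474, 0.0163 and 0.0928 for equal numbers, and TG replicates 1 and 2 correlated best with another number). With it as a block, limma called 1 gene and edgeR with a mean of at least 1 called 3 genes, and the call of no gene of the 7 changed. Alternatives with a mean of at least 1 that leave out a mouse or use the block were chosen after seeing the data. Depth limits S100a8 and S100a9, which rest on 25 and 39 reads in all.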

Other observations

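Markers of other circulating cells were counted in the same libraries, and limma called 0 of them at an adjusted P value of 0.05. Of 15 platelet markers, 7 were tested, 4 higher and 3 lower in Shank3 TG mice by sign alone, with a median log2 fold change of 0.17. Pf4 and Ppbp, the chemokines that platelets store, had 24 against 30 and 6 against 8 reads in TG and WT mice, chosen after their values were seen. The most abundant of the list, Gp1bb, Itgb3 and Itga2b, had 492 ± 22.2, 146 ± 19.6 and 81.5 ± 16.4 normalized read counts in TG and 549 ± 46.7, 129 ± 10.9 and 87.9 ± 5.43 in WT mice (SD, n = 3).

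Of 12 monocyte markers, 7 were tested, 2 higher and 5 lower by sign alone, with a median of -0.05. Ly6c2, the surface antigen of classical monocytes, was chosen after its values were seen and did not overlap between genotypes, with 57.5, 48.3 and 41.9 normalized read counts in TG and 34.3, 40.2 and 37.3 in WT mice (adjusted P = 0.971 by limma), and it ranked 38 of 17604 genes by distance to Hbb-bs. It was the only one of the 7 without overlap and the TG mice higher, against 5.06% of all genes tested. Ly6c1 was likewise the only 1 of the 20 endothelial markers with the TG mice higher without overlap. It had 921 ± 76.9 normalized read counts in TG and 791 ± 52.2 in WT mice (SD, n = 3). Whether reads of Ly6c1 and Ly6c2 were told apart was not tested. In the monocyte list, Ccr2, a chemokine receptor of classical monocytes, had 11 reads in TG and 19 in WT mice. Nr4a1, Fn1 and Vcan, the most abundant of this list, had log2 fold changes of -0.07, 0.02 and -0.15. The T and NK cell list (6 of 19 tested) had a median of 0.02 and the B cell list (5 of 13 tested) one of 0.16. Their most abundant genes were Cd4 (2057 ± 451 in TG and 2127 ± 249 in WT mice, SD, n = 3), Trbc2 and Lck, and Ighm (1289 ± 255 and 1159 ± 203), Fcer2a and Cr2. Of the CD3 chains that define T cells, Cd3e had 4 reads in TG and 1 in WT mice, and Cd3d and Cd3g each had 0 in TG and 1 in WT mice.

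Among tissue lists, the median log2 fold change was -0.02 for endothelial cells (20 tested), -0.12 for mural cells (13), 0.86 for choroid plexus (17), -0.17 for meningeal fibroblasts (12), -0.11 for border macrophages (7) and -0.14 for striatal spiny neurons (12).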
